A study of Mus musculus with 12 samples.

Results

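The question was whether an antibody against Siglec-F and the cytokine interleukin-33 (IL-33) acted on eosinophil gene expression independently of each other or together. The 4 groups formed a crossed design, and the interaction of antibody and IL-33 was estimated for 14547 of the 54532 genes in the deposited count table, those with enough reads, from 12 of 12 libraries. The interaction of a gene is the antibody's log2 fold change in the presence of IL-33 minus its log2 fold change in the absence of IL-33. An interaction of 0 is additivity on the log2 scale, where the fold changes of both stimuli multiply, and an interaction of 1 is a level 2-fold above that expectation.

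Cells were SSChigh 4get+ eosinophils, granular cells that also carried the green fluorescent reporter, sorted from spleens of the mouse strain IL-5tg_4get/C57BL/6. In these mice an IL-5 transgene drives eosinophilia and the 4get reporter labels IL-4-producing cells with GFP. All 4 groups, the isotype control included, carried both, so every value here was measured in cells from an IL-5-rich animal. The groups were isotype (rat IgG2a control antibody, obtained from more than 1 supplier), anti-Siglec-F (rat antibody clone E50-2440, 5 µg/mL), IL-33 (recombinant murine protein, 10 ng/mL) and the combination of anti-Siglec-F and IL-33, with 3 libraries each after 4 h of culture. The labels do not say whether cells given IL-33 alone also received the isotype antibody. They also leave unstated whether replicate libraries are from different mice or wells, so each p-value reflects the spread among libraries only, and that spread may be technical.

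Siglec-F is a sialic acid-binding receptor of mouse eosinophils with an inhibitory motif in its cytoplasmic tail, and it is known for promoting eosinophil death when it is cross-linked. IL-33 is an alarmin released by damaged epithelium. It binds ST2 (gene Il1rl1) together with the IL-1 receptor accessory protein, and signals through MyD88 and IRAK kinases to NF-kB and MAP kinases, which turn on cytokine, chemokine and survival genes. A positive interaction in a gene that IL-33 raises therefore describes a response that is larger when Siglec-F is engaged, and a negative one a response that is smaller.

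The libraries held 11686603 to 17137988 counts each. Markers of the labelled cell type were present in all 12 libraries: Ccr3, the eotaxin receptor, ranged from 1286 to 1909.8 reads scaled per library total (CPM), Siglecf from 535 to 1068, and Epx, eosinophil peroxidase, from 118 to 665. Combined libraries 2 and 3 differed from the rest. Genes with at least 1 count numbered 15555 and 29990 there and 19138 to 24485 elsewhere, and ribosomal protein genes took 3.08% and 3.57% of counts there and 1.52% to 2.43% elsewhere. The SD of log2 CPM within a group, as a median over the 9178 genes averaging 5 CPM or more, was 0.154 for isotype, 0.176 for anti-Siglec-F, 0.210 for IL-33 and 0.332 for the combination. Monocyte and macrophage markers, 16 genes of which 0 were at 0 in all libraries, summed to 1639 to 1898 CPM in isotype, 2075 to 2422 with antibody, 2585 to 3563 with IL-33 and 3301 to 4237 with both, and their part in the results was not tested. In bulk RNA, fewer cells of a type and less RNA per cell cannot be told apart.

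No gene was called for the interaction at an adjusted p under 0.05 by edgeR's quasi-likelihood test (0 of 14547, 0%, smallest adjusted p 0.583). At an unadjusted p under 0.05 there were 1150 genes (7.91%), against 727 expected on average when nothing differs and the p-values are exact. The spread was largest in the combined group, so the difference from 727 is not a count of true interactions. Of the 1150, 736 (5.06%) had a positive and 414 (2.85%) a negative interaction. For the antibody main effect, its mean over cells with and without IL-33, 0 genes were called (smallest adjusted p 0.0622) and 1380 (9.49%) had an unadjusted p under 0.05. For the interaction DESeq2 called 3 genes, Scand1, Tmem160 and F13a1, and limma voom called 0. Without an expression filter edgeR called 86 genes, and without library 1 of the combined group it called 4, namely Scand1, Ppp1r14b, Tmem160 and Pag1. The unadjusted counts moved with single libraries, to 1677 positive and 1885 negative without combined library 1. They were 284 and 175 without anti-Siglec-F library 2 and 289 and 197 without isotype library 2. Without combined library 3 the positive count was 360, and without IL-33 library 3 it was 378. The median SE of the interaction was 0.40 on the log2 scale over all genes tested, so the 95% interval of a typical gene reached to nearly a 2-fold departure on either side.

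The effect of IL-33 itself, averaged over cells with and without antibody (the IL-33 main effect), was called for 1335 genes (9.18%), with 689 higher (4.74%) and 646 lower (4.44%). The count was 771 to 2052 when single libraries were left out. It was over 1.5 times smaller without isotype library 1 (785) or 3 (816), anti-Siglec-F library 1 (870) or IL-33 library 1 (771), and over 1.5 times larger without combined library 1 (2052). These genes describe how the cytokine response fared when the antibody was added. Over 1185 of them averaging at least 5 CPM, the IL-33 fold change without antibody and that with antibody, which share no library, had a Pearson r of 0.928 and a Spearman coefficient of 0.860 across genes. Genes are not independent replicates, and these genes were chosen on the mean of both values, so this is a description. Over all 9178 genes at that level r was 0.595 and the Spearman coefficient 0.339. The antibody effects without and with IL-33, which also share no library, had an r of 0.087 and a Spearman coefficient of -0.005 over the 9178 genes. Over the 1185 genes these were 0.514 and 0.534. The 297 genes that rose at least 2-fold had a median IL-33 effect of 1.63 on the log2 scale without and 1.66 with antibody, and the 134 that fell at least 2-fold had -1.18 and -1.37. The size of the IL-33 response was thus nearly the same in both arms for the typical rising gene.

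**Figure D1:**
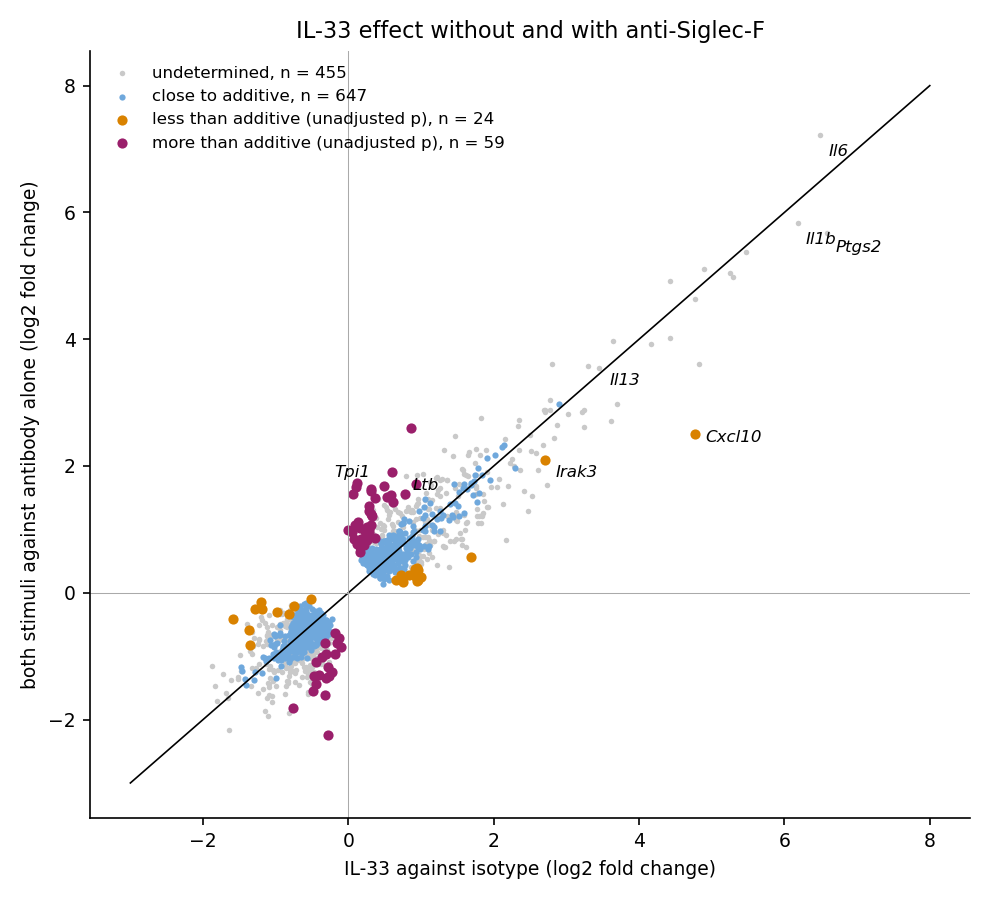
IL-33 effect without antibody (horizontal axis, log2 fold change of IL-33 against isotype) and with antibody (vertical axis, both stimuli against antibody alone) for the 1185 genes called for the IL-33 main effect with a mean of at least 5 CPM. Each point is a gene, the diagonal is log2 additivity, and colours give the class of each gene. Il6 lies above the diagonal (interaction 0.73), and Il1b (-0.35), Irak3 (-0.61), Ptgs2 (-0.92) and Cxcl10 (-2.26) lie below it.

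Each of the 1335 genes was placed in 1 of 4 classes. A gene was close to additive when its unadjusted p was at least 0.05 and the 95% interval of its interaction lay within -1 to 1, so that a 2-fold departure either way was outside the interval. This held for 650 genes (48.7%), 303 rising and 347 falling, against 33.2% of all genes tested. The class needs a narrow interval, and the median SE of the interaction was 0.32 for the 1335 genes beside 0.40 for all, so the higher share goes with precision. Another 588 genes were undetermined, their intervals reaching past a 2-fold departure. The remaining 97 (7.27%) had an unadjusted p under 0.05, a share near the 7.91% of all genes, so the count itself is not a result about IL-33 genes. Among them 69 were more than additive, with the interaction in the direction of the IL-33 effect (42 rising and 27 falling), and 28 were less than additive (16 rising and 12 falling). The more than additive count was 683 without combined library 1 and between 16 and 93 without any other single library, and the less than additive count was 71 and between 11 and 66 respectively. The close to additive count lay between 320 and 833. These class names describe estimates, since no gene in them passed the adjusted threshold.

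The cytokine genes most strongly raised by IL-33 had interactions on both sides of 0 with wide intervals, so whether their IL-33 effect was alike in both arms was not determined. Il6 (ENSMUSG00000025746, chromosome 5, 30013114 to 30019981), the gene of interleukin-6, measured 2.94, 2.07 and 1.88 CPM in the isotype libraries, 3.29, 1.85 and 3.20 with antibody, 330.3, 216 and 79.8 with IL-33 and 387, 145 and 723 with both. The IL-33 groups lay far above the others, and the combined libraries overlapped the IL-33 libraries, with combined library 2 lowest and library 3 highest. The IL-33 main effect was 6.85 on the log2 scale (edgeR adjusted p 1.85e-06), and the interaction was 0.73 with a 95% interval from -1.04 to 2.50. It ranged from 0.07 without combined library 3 to 1.22 without IL-33 library 1.

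Il1b (ENSMUSG00000027398, chromosome 2, 129364570 to 129371139), the precursor of interleukin-1 beta, rose from 14.7, 14.3 and 18.8 CPM to 1736, 1340.3 and 397 with IL-33. It measured 25.7, 27.1 and 46.5 with antibody alone, above every isotype library, and 2081, 856 and 2740.2 with both. Its interaction was -0.35 (interval -1.78 to 1.09) and ranged from -0.79 to 0.06 when single libraries were left out. Il1a, the alarmin interleukin-1 alpha, had the lowest interaction of the cytokine list. It measured 3.52, 3.62 and 5.8 CPM in isotype, 11.4, 8.99 and 22.4 with antibody, 169, 162 and 34.9 with IL-33 and 211, 85.5 and 228 with both. The antibody-only libraries exceeded every isotype library, and the combined libraries overlapped the IL-33 libraries, of which library 3 was low. Its interaction was -1.21 (-2.83 to 0.41), -1.68 without IL-33 library 3 and -0.75 without anti-Siglec-F library 3. Ptgs2, cyclooxygenase 2 of prostaglandin synthesis, measured 2.94, 2.51 and 1.33 CPM in isotype, 9.30, 7.79 and 9.74 with antibody, 405, 195 and 59.9 with IL-33 and 711, 104 and 553 with both. Each antibody-only library exceeded each isotype library for Ptgs2, and the combined libraries overlapped the IL-33 libraries. Its interaction of -0.92 reached from -2.98 to 1.15 and stood at -0.25 without combined libraries 2 and 3. Here and below, that fit keeps 1 combined library, whose spread is taken from the other groups.

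Of the type 2 cytokine genes Il13 and Il5 rose with IL-33 and Il4 was not called. Il13 (chromosome 11, 53631324 to 53634702), a driver of mucus production and tissue remodelling, measured 20.5, 20.9 and 20.8 CPM in isotype, 36.2, 26.4 and 41.5 with antibody, 376, 218 and 87.7 with IL-33 and 439, 204 and 568 with both, and its interaction was 0.08 (-1.20 to 1.37), from -0.33 without IL-33 library 3 to 0.65 without IL-33 library 1. Il5, the eosinophil growth and survival factor and also the transgene of this strain, rose with IL-33 and had an interaction of -0.18 (-1.02 to 0.67), and reads from the transgene and the endogenous gene cannot be told apart in these counts. Il4, which marks type 2 immunity, was not called for IL-33 (adjusted p 0.377) and had an interaction of -0.59 (-1.32 to 0.14), -0.05 without combined libraries 2 and 3 and -1.02 with length and GC trends removed from each library (unadjusted p 0.0356). Its combined libraries held 269.9, 132 and 168 CPM against 211, 177 and 192 with antibody alone.

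Of 23 cytokine and growth factor genes tested, 11 rose with IL-33 and 0 fell, and their median interaction was 0.05 (-0.15 without IL-33 library 3 and 0.33 without combined library 2) beside -0.03 over all genes. In 1 of them, Ltb, the unadjusted p was under 0.05 with a positive sign. Ltb (ENSMUSG00000024399, chromosome 17, 35194439 to 35196320) encodes lymphotoxin beta, the membrane partner of lymphotoxin alpha in lymphoid tissue organization. It measured 243, 328 and 285 CPM in isotype, 245, 198 and 267 with antibody, 461, 599 and 403 with IL-33 and 515, 788 and 786 with both, against 399 CPM expected from log2 additivity. Every combined library exceeded that expectation. The interaction was 0.78 (SE 0.30, unadjusted p 0.0197, edgeR adjusted p 0.583). It became 0.39 without combined libraries 2 and 3 and 0.28 once these trends were removed. Tnf, the cytokine tumor necrosis factor, measured 23.6, 21 and 20.1 CPM in isotype, 48.3, 50.4 and 50.2 with antibody, 190.3, 133 and 91.0 with IL-33 and 220.0, 177 and 350.0 with both, and its interaction was -0.35 (-1.14 to 0.45).

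**Figure D2:**
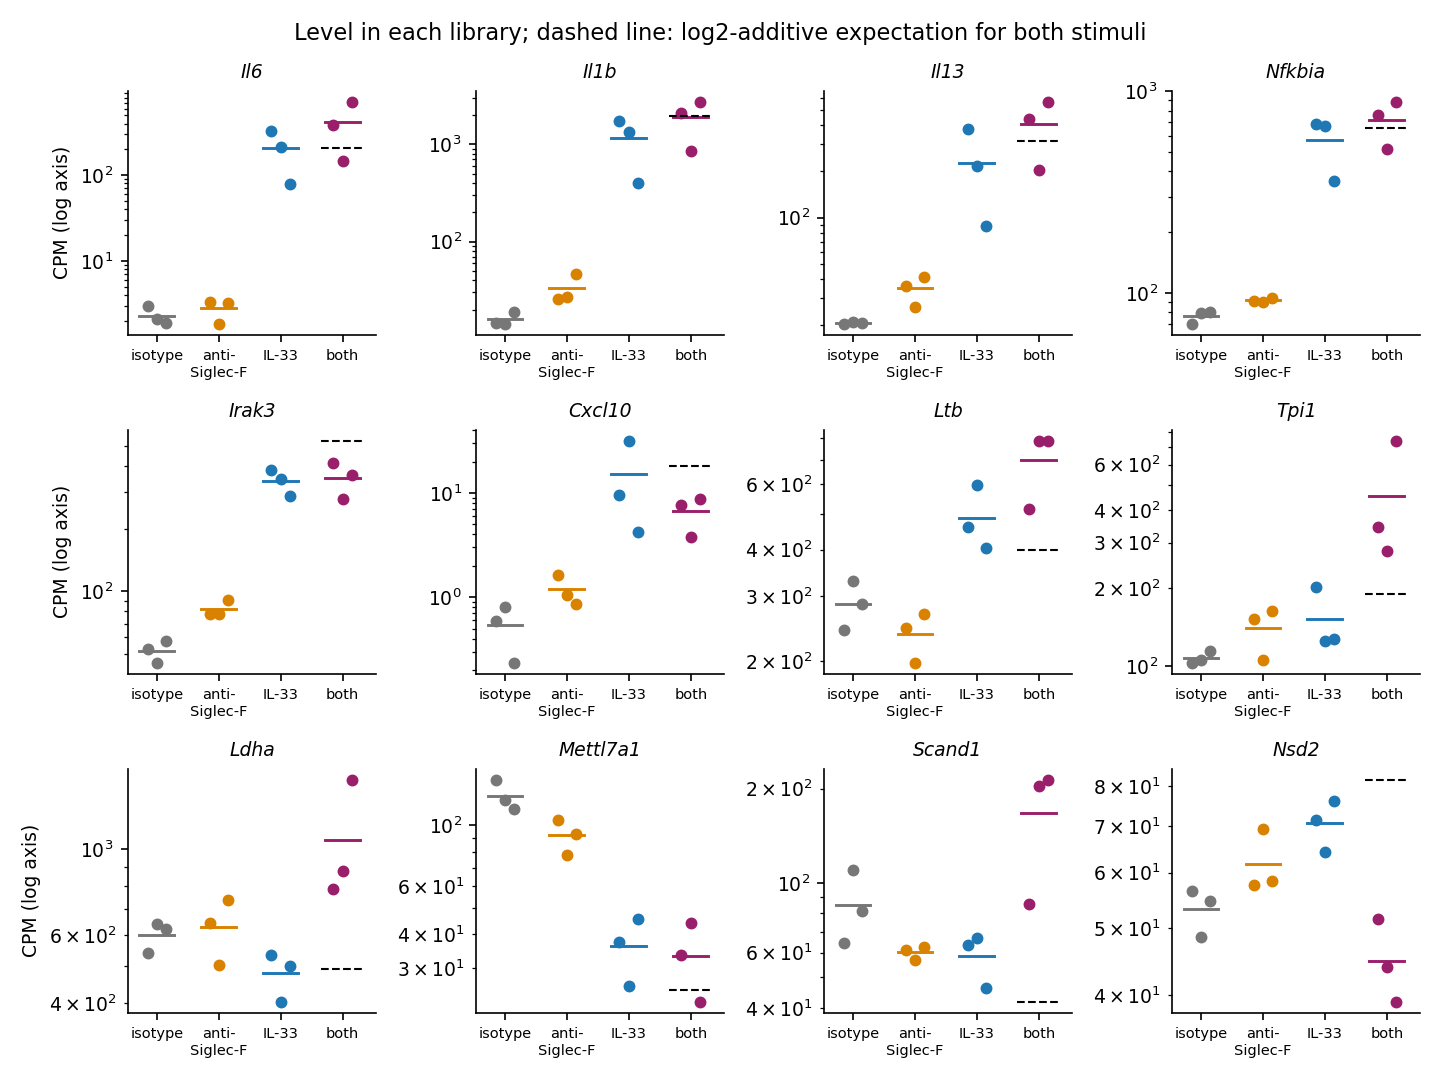
CPM (log axis) of 12 genes in each library of the isotype, anti-Siglec-F, IL-33 and combined groups; points are libraries, solid bars are group means and the dashed line is the log2-additive expectation for the combined group. For Il6, Il1b, Il13 and Nfkbia the expectation falls within the combined libraries; for Irak3 and Cxcl10 it lies above all 3 and for Ltb, Tpi1, Ldha and Scand1 below all 3.

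Among chemokines, 7 of 12 genes tested rose with IL-33 and 0 fell, and the median interaction was -0.11. That median was 0.56 without IL-33 library 1, -0.61 without IL-33 library 3 and -0.64 without combined library 3. Ccl3, a chemoattractant for monocytes and granulocytes, measured 20.6, 21.9 and 14.3 CPM in isotype, 44.6, 29.5 and 47.6 with antibody, 1276, 666 and 215 with IL-33 and 1384, 545 and 2099 with both, with an interaction of -0.20 (-1.79 to 1.4). Ccl4, its neighbour on chromosome 11, had -0.13 (-2.06 to 1.81), and Cxcl2, a neutrophil attractant, -0.10 (-2.17 to 1.97). The 3 combined libraries departed from the additive expectation by a median over the list of 0.30, -0.71 and 0.68 in libraries 1, 2 and 3, so they lay on both sides of it.

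At an unadjusted p under 0.05, 2 of the 12 chemokines had a positive and 1 a negative interaction, beside 5.06% and 2.85% of all genes. The negative one was Cxcl10 (ENSMUSG00000034855, chromosome 5, 92346638 to 92348889), the interferon-inducible attractant of T cells. It measured 0.587, 0.812 and 0.235 CPM in isotype, 1.65, 1.04 and 0.867 with antibody, 9.6, 31.9 and 4.19 with IL-33 and 7.74, 3.79 and 8.79 with both. The combined libraries overlapped the IL-33 libraries, and the antibody-only libraries lay above every isotype library. Cxcl10 had only 9, 11 and 3 counts in isotype and 23, 13 and 13 with antibody, so its additive expectation rested on few reads. The interaction was -2.26 (SE 0.97, unadjusted p 0.0338, edgeR adjusted p 0.583), and it ranged from -2.73 to -1.14 when single libraries were left out. IL-33 library 2, the highest for Cxcl10, also held the most T cell and ILC2 marker RNA, 173 CPM summed over 18 genes of which 0 were at 0 in all libraries. The range was 52.5 to 91.7 in isotype, 49.3 to 68.1 with antibody, 43.9 to 173 with IL-33 and 41.5 to 64.7 with both, and its part in the result was not tested. Ccl17, a ligand of CCR4, lay on the other side with an interaction of 2.25, but at 1.83, 2.19 and 6.47 CPM in the combined libraries and 0.349 to 6.47 over all libraries it was close to the limit of detection.

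The inhibitors and subunits of NF-kB that the pathway itself induces rose with IL-33, and most of their interactions were below 0. Of 18 genes in this list 15 rose and 0 fell, of which 9 were close to additive, 5 undetermined, 1 less and 0 more than additive. In the list 0 had a positive and 1 a negative interaction at an unadjusted p under 0.05, and the median interaction was -0.17. Of the 18, 5 lay above 0, beside 48% of all genes. The median was 0.02 without combined libraries 2 and 3, with 10 above 0, and -0.33 with trends removed. RefSeq promoter windows, 250 bases before to 50 after a start on GRCm38.p6, are shown for 2 of these genes as the regulatory sequence through which NF-kB feedback is known to act. Capitals mark matches to the NF-kB consensus (10 bases), searched on both strands with overlapping matches counted. Nfkbia is at chr12:55492598-55492897 on the minus strand with 1 match, and Nfkb2 at chr19:46304487-46304786 on the plus strand with 3, of which a pair overlap.
Nfkbia: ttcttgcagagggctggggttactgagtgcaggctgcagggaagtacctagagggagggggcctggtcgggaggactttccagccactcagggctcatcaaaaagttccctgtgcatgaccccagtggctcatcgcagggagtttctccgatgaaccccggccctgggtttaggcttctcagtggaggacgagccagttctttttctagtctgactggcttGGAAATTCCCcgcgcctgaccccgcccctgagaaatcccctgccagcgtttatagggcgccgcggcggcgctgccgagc
Nfkb2: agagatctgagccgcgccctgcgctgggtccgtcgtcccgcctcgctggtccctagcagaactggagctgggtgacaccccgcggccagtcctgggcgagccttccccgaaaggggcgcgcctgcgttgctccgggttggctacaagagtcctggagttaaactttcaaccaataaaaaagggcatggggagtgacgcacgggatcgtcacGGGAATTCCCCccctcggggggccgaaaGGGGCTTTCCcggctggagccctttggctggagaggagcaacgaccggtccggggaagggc
The consensus was present in 10 of the 15 list genes matched to a window, against 2581 of 27025 genes in the table (9.55%), and in 0 places of the window used for Irak3. A match describes letters in this window and not binding.

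Nfkbia (ENSMUSG00000021025, chromosome 12, 55489410 to 55492647) encodes I kappa B alpha, which retains NF-kB in the cytoplasm. It measured 70.3, 79.5 and 79.9 CPM in isotype, 90.6, 90.5 and 93.9 with antibody, 689, 671 and 359.7 with IL-33 and 762, 514 and 886 with both. Each antibody-only library exceeded each isotype library, and the combined libraries lay around the additive expectation of 659 CPM. The IL-33 main effect was 2.94 and the interaction 0.07 (-0.65 to 0.79), so a 2-fold departure from additivity lay outside the interval. Nfkb2, the p100 precursor of the alternative pathway, measured 98.8, 104 and 106 CPM in isotype, 91.0, 98.8 and 105 with antibody, 532, 461 and 346 with IL-33 and 568, 331 and 547 with both, with an interaction of 0.18 (-0.44 to 0.81). Its partner Relb had 0.16 (-0.34 to 0.66), and Nfkbie, I kappa B epsilon, -0.24 (-0.73 to 0.25). N4bp1, a nuclease that restrains NF-kB signalling, was the member with a negative unadjusted result, at -0.68 (unadjusted p 0.0429). Its value was -0.18 without combined libraries 2 and 3.

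The brakes Irak3 and Traf3 were among the less than additive genes. Irak3 (ENSMUSG00000020227, chromosome 10, 120141648 to 120202130) encodes IRAK-M, a member of the IRAK family that dampens MyD88 signalling. It measured 52.7, 45.4 and 57.5 CPM in isotype, 77.7, 78.2 and 90.4 with antibody, 382, 345 and 286 with IL-33 and 414, 277 and 361 with both. The antibody-only libraries exceeded every isotype library, but the combined libraries overlapped the IL-33 libraries and all lay below the additive expectation of 530.1 CPM. The interaction was -0.61 (SE 0.25, unadjusted p 0.028, edgeR adjusted p 0.583). It stayed between -0.76 and -0.47 when single libraries were left out, was -0.33 without combined libraries 2 and 3 and -0.64 with length and GC trends removed. Traf3, a ubiquitin ligase that restrains the alternative NF-kB pathway, had -0.76 (unadjusted p 0.0164), with 286, 304 and 339.9 CPM under IL-33 and 299.7, 182 and 172 under both. Combined library 1 was within the IL-33 range and libraries 2 and 3 below it, and without those the interaction was -0.26.

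Neither receptor of the stimuli stood out. Il1rl1, which encodes ST2, measured 539, 518 and 570.5 CPM in isotype and 857, 769.8 and 567 with both, and its interaction was -0.06 (-0.66 to 0.54). Siglecf itself measured 913, 789 and 932 CPM in isotype, 829.6, 828 and 1068 with antibody, 700.5, 535 and 858 with IL-33 and 606, 673 and 572 with both. Its interaction was -0.23 (-0.79 to 0.34), and a 2-fold departure lay outside that interval. Over 19 genes of the IL-33 receptor and MyD88 list the median interaction was -0.06, with 1 negative and 0 positive at an unadjusted p under 0.05. Over 21 Siglecs, inhibitory receptors and phosphatases it was -0.01, with 2 negative and 0 positive, beside 2.85% and 5.06% of all genes. With trends removed the latter list had 0 negative and 1 positive. Siglece, another inhibitory Siglec of myeloid cells, was among the 6 of that list that rose with IL-33. It measured 189.6, 233 and 234 CPM in isotype, 264, 278 and 385 with antibody, 713, 851 and 556 with IL-33 and 859, 1142 and 1021 with both. These levels stepped up with each stimulus, the combined libraries lay on both sides of the additive expectation of 973 CPM, and the interaction was 0.01 (-0.60 to 0.62).

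Survival genes that IL-33 raised were close to additive or undetermined. Bcl2l1 (ENSMUSG00000007659, chromosome 2, 152780668 to 152831728), the anti-apoptotic BCL-XL gene, measured 96.0, 123 and 99.8 CPM in isotype, 145, 138 and 157 with antibody, 278, 294 and 217 with IL-33 and 316, 364 and 349.8 with both. The 4 groups did not overlap, and the combined libraries lay on both sides of the expected 361 CPM. The interaction was -0.08 (-0.55 to 0.39), among the narrowest intervals of genes changed at least 2-fold by IL-33. Of 8 SOCS and PIM feedback genes 4 rose with a median interaction of 0.01. Pim2, a survival kinase induced by cytokines, had 0.10 (-0.56 to 0.76), and Socs3, a feedback inhibitor of cytokine receptors, -0.08 (-0.62 to 0.46). Of 22 survival and death genes 11 rose and 1 fell, and of these 12 genes 5 were close to additive and 7 undetermined. The median interaction of the list was 0.12, and -0.05 with trends removed. In 2 of its genes the interaction was positive at an unadjusted p under 0.05, the death genes Bad and Bbc3, and in 0 it was negative. The Bcl2a1 copies Bcl2a1a, Bcl2a1b and Bcl2a1d had 0.33, 0.50 and 0.41, and reads of such near-identical genes may have been split between them.

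**Figure D3:**
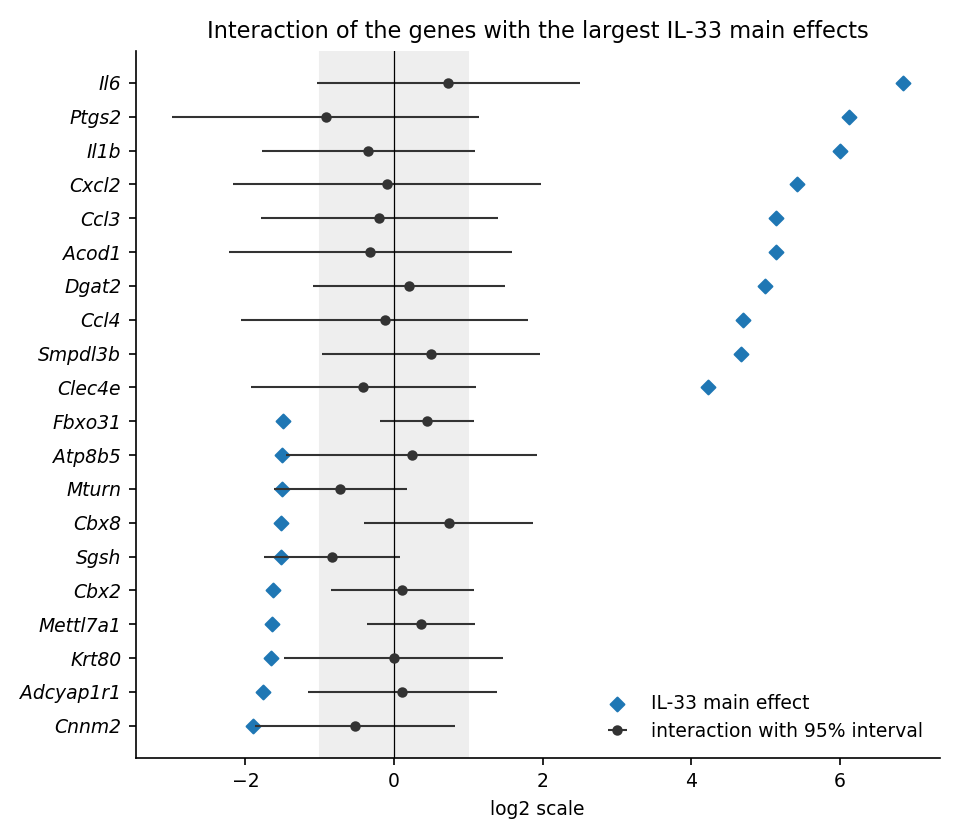
IL-33 main effect (diamonds) and interaction with its 95% interval (points and lines), both on the log2 scale, for the 10 genes with the largest positive and the 10 with the largest negative IL-33 main effect among named genes. The shaded band spans -1 to 1; all 20 intervals include 0, and all reach past the band on at least 1 side, as for Il6 (-1.04 to 2.50).

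Among the 646 genes that IL-33 lowered, 347 were close to additive. Mettl7a1, a methyltransferase-like gene, measured 147, 124 and 115 CPM in isotype, 104, 78.1 and 93.3 with antibody, 37.3, 25.8 and 45.2 with IL-33 and 33.5, 44.0 and 22.6 with both. Every antibody-only library lay below every isotype library, and the IL-33 and combined libraries overlapped. The interaction of Mettl7a1 was 0.37 (-0.36 to 1.10) and so undetermined. Itgb7, an integrin beta chain for mucosal homing, had 0.13 (-0.64 to 0.89). Tmem71 and Frat1, the second an inhibitor of GSK3, had 0.06 and -0.09 with intervals inside the band. Cbx8, a Polycomb chromatin protein, fell by 1.52 on the log2 scale and was undetermined at 0.74 (-0.40 to 1.87).

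Glycolysis enzymes break down glucose to lactate, and hypoxia genes include many that hypoxia-inducible factor controls; both lists had positive median interactions. Of 20 glycolysis genes 4 rose with IL-33 and 0 fell, 16 had an interaction above 0, beside 6978 of 14547 genes (48%), and the median was 0.40. For 4 of them, Tpi1, Pgk1, Ldha and Gapdh, the unadjusted p was under 0.05 with a positive sign, and for 0 with a negative sign, beside 5.06% and 2.85% of all genes. The antibody effect over the list had a median of 0.11 without and 0.57 with IL-33. Of 15 hypoxia response genes 5 rose and 3 fell, 12 were above 0, the median was 0.49, and Egln1, Bnip3 and Higd1a had an unadjusted p under 0.05. The glycolysis median was 0.40 without combined libraries 2 and 3 and 0.40 with trends removed, but 0.17 without combined library 3 and 0.20 by voom. For hypoxia these medians were 0.64, 0.43, 0.30 and 0.27. The combined libraries departed from the additive expectation by a median of 0.38, 0.00 and 0.74 over the glycolysis genes and 0.65, -0.07 and 0.59 over the hypoxia genes, so library 2 did not lie above it as libraries 1 and 3 did. Neutrophil markers (0.72, -0.14 and 1.26 over 14 genes) and monocyte and macrophage markers (0.65, -0.19 and 0.39 over 14 genes) were likewise lowest in library 2, and their part in these medians was not tested.

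Tpi1 (ENSMUSG00000023456, chromosome 6, 124810586 to 124814296), triosephosphate isomerase, measured 103, 105 and 115 CPM in isotype, 153, 106 and 164 with antibody, 202, 125 and 128 with IL-33 and 345, 278 and 742 with both. The combined libraries lay above all others and above the additive expectation of 190.2 CPM, with library 3 highest. The interaction was 1.20 (SE 0.44, unadjusted p 0.0174, edgeR adjusted p 0.583). It was 0.83 without combined libraries 2 and 3 and 0.98 with trends removed (unadjusted p 0.0217). Pgk1, phosphoglycerate kinase, measured 132, 129 and 109 CPM in isotype, 156, 118 and 128 with antibody, 198, 139.8 and 114 with IL-33 and 316, 184 and 539 with both, and its interaction was 1.08 (unadjusted p 0.0256). Its combined library 2 lay within the IL-33 range.

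Ldha (ENSMUSG00000063229, chromosome 7, 46841475 to 46855627), lactate dehydrogenase A, was not called for IL-33 (adjusted p 0.498). It measured 539.9, 641 and 621 CPM in isotype, 643, 501 and 737 with antibody, 533, 403 and 498 with IL-33 and 787, 876 and 1511 with both. All combined libraries exceeded the libraries of the other groups, while the IL-33 libraries lay at or below isotype. The interaction of 1.08 (SE 0.33, unadjusted p 0.00591, edgeR adjusted p 0.583) ranged from 0.73 to 1.24 when single libraries were left out. Gapdh, a glycolytic enzyme often used as a reference gene, measured 1216, 1026 and 984 CPM with IL-33 and 1447, 1682 and 2475 with both, with an interaction of 0.66 (unadjusted p 0.0385). It was 0.33 without combined libraries 2 and 3, and at its lowest 0.40 with a single library left out.

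The oxygen sensor gene Egln1, which encodes the prolyl hydroxylase PHD2, had the narrowest interval of the hypoxia genes named. It measured 30.8, 34.0 and 34.1 CPM in isotype, 27.9, 28.9 and 29.7 with antibody, 36.6, 25.2 and 32.8 with IL-33 and 44.5, 42.2 and 45.9 with both. The combined libraries exceeded all others, and each lay above the expectation by a like amount (0.70, 0.62 and 0.74 on the log2 scale). The interaction was 0.68 (0.21 to 1.15), and 0.72 without combined libraries 2 and 3. Bnip3, a mitophagy receptor, measured 27.0, 9.0 and 41.3 CPM with both against 14.1, 7.55 and 6.14 with IL-33, an interaction of 1.69, and its combined library 2 overlapped the IL-33 libraries. Egln3, a hydroxylase paralog that rose with IL-33, was undetermined at 0.60 (-0.16 to 1.36).

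The promoter window of Ldha is shown because hypoxia-inducible factor is known to act on this gene. The core of the hypoxia response element, ACGTG, was searched on both strands with overlapping matches counted, and was found at 5 positions in chr7:46845554-46845853 (plus strand, RefSeq, GRCm38.p6). Capitals mark the matches.
Ldha: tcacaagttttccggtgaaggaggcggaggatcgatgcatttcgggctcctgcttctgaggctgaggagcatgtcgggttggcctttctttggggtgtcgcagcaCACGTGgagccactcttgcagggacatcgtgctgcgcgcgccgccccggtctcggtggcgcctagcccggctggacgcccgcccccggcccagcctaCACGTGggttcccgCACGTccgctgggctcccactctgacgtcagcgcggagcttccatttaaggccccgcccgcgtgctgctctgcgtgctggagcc
The core was present in 13 of 19 glycolysis genes and 12 of 15 hypoxia genes matched to a window, and in 5886 of 27025 genes in the table (21.8%). The window of Tpi1 held 0 matches.

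**Figure D4:**
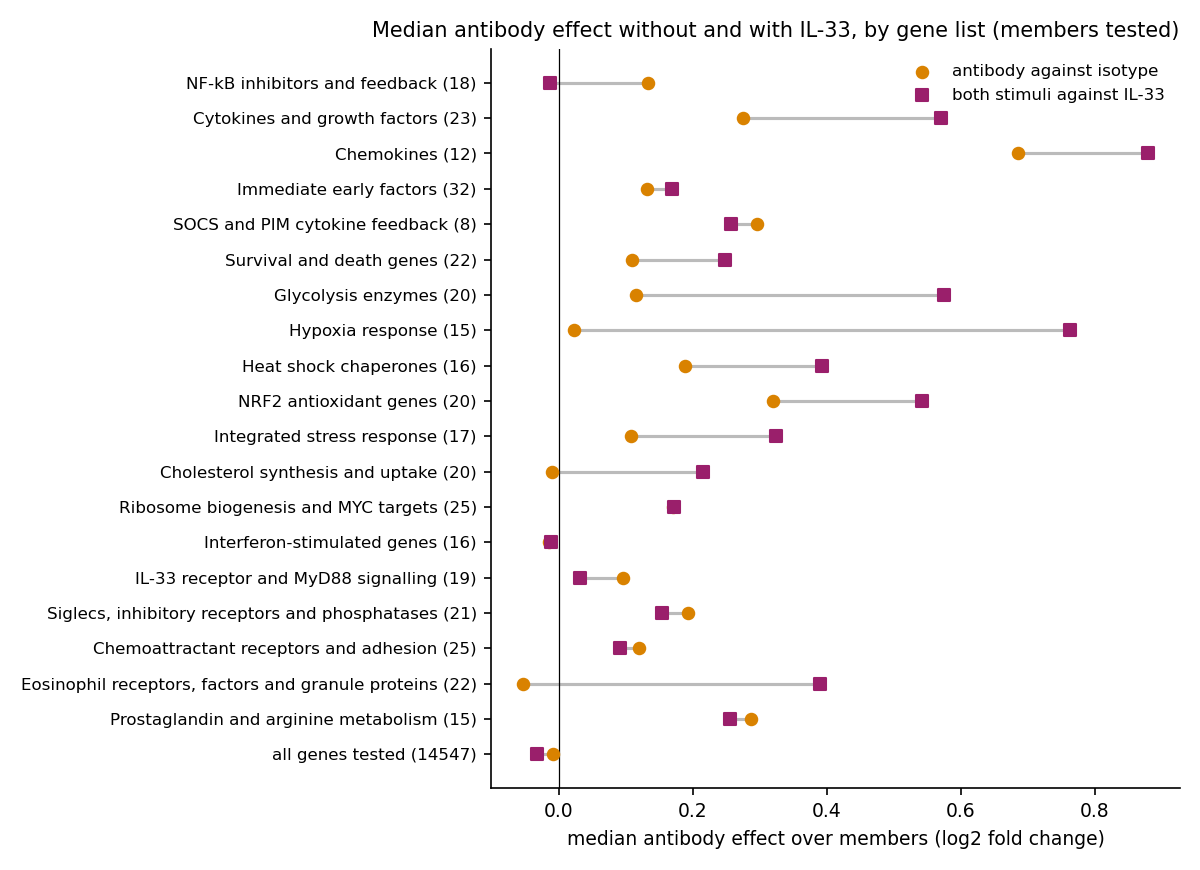
Median antibody effect over the tested members of each gene list (log2 fold change), without IL-33 (circles, antibody against isotype) and with IL-33 (squares, both stimuli against IL-33), with the number of members in parentheses. The distance from circle to square is a difference of medians, not the median interaction; it is longest among the lists plotted for hypoxia response (0.02 to 0.76), glycolysis (0.11 to 0.57) and eosinophil genes (-0.05 to 0.39). Marker lists of other cells, which are not plotted, had like distances, as for neutrophil (-0.02 to 0.45) and T cell and ILC2 markers (-0.27 to -0.88).

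Among stress lists the NRF2 antioxidant genes had the most members that rose with IL-33. Of 20 genes 11 rose and 0 fell, 10 of those 11 were undetermined and the median interaction was 0.16, but -0.11 without IL-33 library 3. Hmox1, heme oxygenase 1, measured 116, 140.3 and 52.8 CPM in isotype, 288, 247 and 131 with antibody, 1568, 1152 and 199 with IL-33 and 2193, 576 and 2117 with both, and its interval ran from -2.25 to 1.53. IL-33 library 3 and combined library 2 were the low members of their groups. Heat shock chaperones rose in 5 of 16 cases, all 5 close to additive, with a median interaction of 0.13, which was 0.02 without isotype library 1. Integrated stress response genes rose in 3 and fell in 1 of 17 with 0.24, and 0.04 without IL-33 library 3. Cholesterol genes rose in 9 of 20 with 0.22, and -0.11 without IL-33 library 2. Of the 20, 2 had a positive and 0 a negative interaction at an unadjusted p under 0.05, beside 5.06% and 2.85% of all genes. Immediate early factors rose in 14 and fell in 1 of 32 with a median of 0.03, and -0.21 without IL-33 library 3. Jund and Ier2 had a positive interaction at an unadjusted p under 0.05 in that list and 0 had a negative one. Egr2, a zinc finger factor downstream of MAP kinases, measured 31.7, 31.7 and 41.1 CPM with antibody against 16.9, 18.2 and 14.7 in isotype, and 163, 61.1 and 109.9 with both against 113, 87.8 and 27.2 with IL-33, for an interaction of -0.51 (-1.76 to 0.74).

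Adhesion, lipid mediator and interferon lists had interactions on both sides of 0. Of 25 chemoattractant receptor and adhesion genes 3 rose and 2 fell, with a median interaction of -0.01. Cd69, an early activation marker that retains leukocytes in tissue, measured 10.9, 16.9 and 11.3 CPM in isotype, 17.0, 22.6 and 15.7 with antibody, 119.8, 139 and 59.7 with IL-33 and 125, 83.0 and 184 with both. Both IL-33 groups lay above the others and overlapped each other, and the interaction was -0.20 (-1.19 to 0.78). Icam1, the integrin ligand of leukocyte adhesion, had -0.55 (-1.29 to 0.19). Of 15 prostaglandin and arginine metabolism genes 5 rose and 1 fell, with a median of -0.22 (0.21 without IL-33 library 1), and 1, Ptges3, a prostaglandin E synthase and HSP90 co-chaperone, was more than additive. Ptges3 measured 109, 139 and 116 CPM in isotype, 128, 129 and 111 with antibody, 156, 170.3 and 143 with IL-33 and 210.2, 221 and 239 with both, and its combined libraries exceeded all others. Its interaction was 0.50 (SE 0.20, unadjusted p 0.0271), 0.45 without combined libraries 2 and 3 and 0.17 with trends removed (unadjusted p 0.341). Of 16 interferon-stimulated genes 0 rose and 1 fell, with interactions from -1.15 to 1.74 and a median of 0.16 (-0.06 without combined library 2). The one that fell was Oasl2, an antiviral gene, with an interaction of 0.24 (-0.54 to 1.03).

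Outside the lists, the narrowest intervals among genes raised at least 2-fold included those of Nadk and Snx10. Nadk, the kinase that makes NADP, measured 467, 451 and 487 CPM in isotype, 552, 559 and 734 with antibody, 1450.3, 1238 and 1360.0 with IL-33 and 1372, 1326 and 1591 with both. The antibody-only libraries exceeded isotype, the IL-33 and combined libraries overlapped, and the interaction was -0.31 (-0.79 to 0.17). Snx10, a sorting nexin of endosomes, measured 62.7, 64.6 and 61.3 CPM in isotype, 59.1, 59.6 and 67.5 with antibody, 147, 163 and 128 with IL-33 and 158, 113 and 145 with both, and had -0.06 (-0.52 to 0.41). Dgat2, an enzyme of triglyceride synthesis, rose far more (5.00 on the log2 scale) and was undetermined at 0.20 (-1.09 to 1.5). So was Acod1, which makes itaconate, at -0.32 (-2.22 to 1.59).

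Genes of ribosome biogenesis, which MYC and growth signals control, had a median interaction near that of all genes. Of 25 genes 9 rose with IL-33 and 0 fell, the median interaction was -0.03, and 4 (Nolc1, Ddx21, Cad and Utp20) had a negative interaction at an unadjusted p under 0.05 and 0 a positive one, beside 2.85% and 5.06% of all genes. The 4 became 1 without isotype library 3, without anti-Siglec-F library 2, without IL-33 library 2, without combined libraries 2 and 3 and with trends removed. They became 2 without isotype library 1 or 2, IL-33 library 3 or combined library 3, and without combined library 1 there were 6 negative and 4 positive. Nolc1 (chromosome 19, 46075863 to 46085530), a nucleolar phosphoprotein, measured 31.5, 28.6 and 28.5 CPM in isotype, 33.7, 37.3 and 32.4 with antibody, 44.7, 48.4 and 46.4 with IL-33 and 40.0, 41.1 and 38.1 with both. Each stimulus alone stood above isotype, and the combination lay between antibody alone and IL-33 alone without overlap and below the expected 54.2 CPM in all 3 libraries. The interaction was -0.45 (SE 0.18, unadjusted p 0.0287), -0.40 without combined libraries 2 and 3 and -0.41 with trends removed (unadjusted p 0.0369). The RNA helicase gene Ddx21 had -0.44, with 142, 147 and 120.0 CPM in the combined libraries against 183 expected, and -0.34 without combined libraries 2 and 3. Nop16 of the same list had 0.90 (unadjusted p 0.096), but -0.28 without combined libraries 2 and 3, where the list median was -0.25 with 5 of 25 above 0. Outside the list, and chosen after their values were seen, Heatr1, a gene of ribosomal RNA processing, had -0.58, and Pprc1, a coactivator of mitochondrial biogenesis genes, -0.75 with 48.3, 36.3 and 47.3 CPM against 72.7 expected.

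Eosinophil receptors, lineage factors and granule proteins had a median interaction of 0.50 over 22 genes, with 16 above 0, and 0 rose and 1 fell with IL-33. At an unadjusted p under 0.05, 3 had a positive and 0 a negative interaction, beside 5.06% and 2.85% of all genes. With trends removed these counts were 1 and 0. The median rested on 1 library. Over the list the combined libraries departed from expectation by a median of 0.15, 0.04 and 0.80, and the median interaction was 0.14 without library 3, 0.11 without libraries 2 and 3 and 0.06 with trends removed. Prg2, the major basic protein of eosinophil granules, measured 2826, 1553 and 658 CPM in isotype, 2914, 933 and 716 with antibody, 2005, 922 and 622 with IL-33 and 1772, 896 and 5372 with both. Library 1 was the highest of its group in 3 groups and library 3 in the combined group, and the interval of -0.77 to 3.42 reached far to both sides.

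The 69 more than additive genes had a median gene length of 2381 bases and the 28 less than additive genes 4377.5. The median over all 1335 genes was 4171. Among rising genes the more than additive ones were shorter (1979.5 against 5648.5 bases), but among falling genes they were longer (4761 against 3109.5). Length thus went with the sign of the interaction and not with the class. Among rising genes the more than additive class included Ube2m, a NEDD8-conjugating enzyme, with 96.4, 105 and 74.4 CPM under IL-33, 114, 169 and 183 under both and an interaction of 1.00 (0.59 without combined libraries 2 and 3). It also included Rras, a RAS family GTPase (0.95, but 0.53 without combined libraries 2 and 3 and 0.39 with trends removed), and Ppp1r14b, a phosphatase inhibitor (1.49), whose combined libraries held 46.1, 122 and 136 CPM. For Ppp1r14b library 1 lay below the IL-33 range of 50.9 to 55.6 CPM and libraries 2 and 3 above it, and without those the interaction was 0.39. Among falling genes Arhgef6, a guanine nucleotide exchange factor, was more than additive (-0.84, but -0.38 without combined libraries 2 and 3), with 44.9, 39.0 and 71.8 CPM under IL-33 and 41.1, 26.2 and 25.3 under both. Dap, a death-associated protein gene, was less than additive, and its combined libraries held 79.9, 76.8 and 85.8 CPM, above every IL-33 library (66.5, 57.5 and 69.1) and above the 49.9 expected. Its interaction was 0.67 (0.69 without combined libraries 2 and 3, 0.30 with trends removed).

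Over all 14547 genes, the 10 named genes with the smallest unadjusted p in each direction were mostly not IL-33 genes: 1 of the 10 positive ones, Ube2m, and 0 of the 10 negative ones were called for IL-33. Scand1 (ENSMUSG00000046229, chromosome 2, 156311847 to 156312704), a SCAN domain gene, measured 64.4, 110.3 and 81.4 CPM in isotype, 61.2, 56.9 and 62.7 with antibody, 63.4, 66.7 and 46.2 with IL-33 and 85.9, 204 and 214 with both. Combined libraries 2 and 3 exceeded all others and library 1 lay within the isotype range, though above the 41.9 CPM expected. The interaction was 2.02 (SE 0.41, unadjusted p 0.000253, edgeR adjusted p 0.583), 1.09 without combined libraries 2 and 3 and 1.20 with trends removed. Tmem160, a mitochondrial membrane protein gene, had 1.68 and the same order of combined libraries (36.5, 67.2 and 87.0 CPM). Glrx5, a mitochondrial iron-sulfur cluster protein (1.28), and Arf5, a GTPase of vesicle traffic (1.14), followed. All 10 positive genes were shorter than the median of 3713 bases over all genes, from 649 to 3682 bases in the authors' table.

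The 10 negative genes were all longer than that median, from 6101 to 18267 bases. Nsd2 (ENSMUSG00000057406, chromosome 5, 33820725 to 33897975), a histone H3 lysine methyltransferase with 16803 bases, measured 56.5, 48.5 and 54.6 CPM in isotype, 57.6, 69.3 and 58.4 with antibody, 71.5, 64.2 and 76.1 with IL-33 and 51.4, 43.9 and 39.2 with both. Each stimulus alone stood at or above isotype, and all combined libraries lay below both single-stimulus groups. The interaction was -0.87 (SE 0.21, unadjusted p 0.00103), -0.64 without combined libraries 2 and 3 and -0.40 with trends removed. Dock10, a guanine nucleotide exchange factor of leukocytes, had -0.94, and Pag1, a membrane adaptor that recruits the Src kinase inhibitor Csk, -1.84. Combined libraries 2 and 3 held 4.12 and 5.38 CPM of Pag1 and library 1 held 15.8. F13a1, the coagulation factor XIII A chain of macrophages and platelets and named here after its values were seen, was at 0.804, 0.336 and 0.749 CPM in the combined libraries, below each of the other 9 libraries (2.35 to 5.19), with an interaction of -2.78 (-2.41 without combined libraries 2 and 3).

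The sign of the interaction followed gene length across all genes. The 736 genes with a positive unadjusted result had a median length of 1916 bases and 52.5% GC, the 414 with a negative result 5962.5 bases and 49.0%, and all tested genes 3713 bases and 49.1%. In 10 length classes over genes averaging at least 5 CPM, the median interaction went from 0.63 in the shortest to -0.40 in the longest. Without combined libraries 2 and 3 it went from 0.16 to -0.05, and with trends removed from 0.12 to -0.01. Removing trends takes out length by construction, so the flat profile in that fit is not a separate result. The median log2 CPM of the 20% shortest genes less that of the 20% longest, relative to the mean of all libraries, was 0.556 and 0.604 in combined libraries 2 and 3, -0.154 in combined library 1 and between -0.447 and 0.216 in the other groups. Without those 2 libraries the unadjusted counts were 127 positive and 171 negative, and of the 736 positive genes 725 kept their sign and 59 their unadjusted p under 0.05. Of the 414 negative genes 414 kept the sign and 47 the p. With trends removed, 327 and 256 kept both. The fit without combined libraries 2 and 3 has 1 library in that group, so its counts also reflect fewer libraries. Both fits share libraries with the fit that chose these genes, so a kept sign is not separate support.

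**Figure D5:**
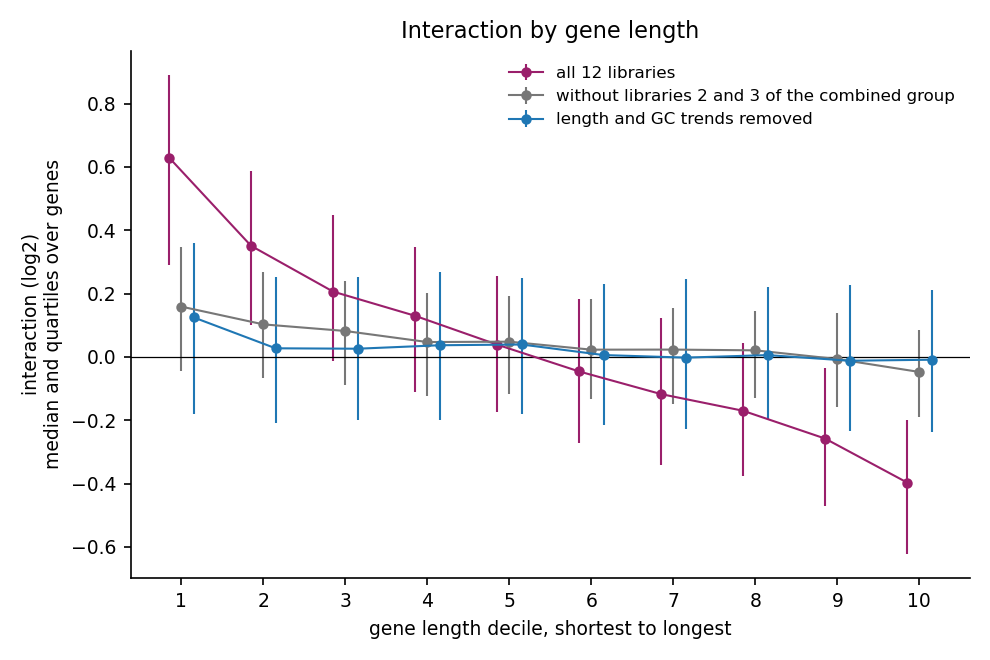
Median interaction (log2, points) with quartiles over genes (bars) in 10 gene length classes, shortest to longest, over 9178 genes averaging at least 5 CPM, for all 12 libraries, without combined libraries 2 and 3, and with length and GC trends removed from each library. With all libraries the medians run from 0.63 to -0.40, and in both other settings they stay between 0.16 and -0.05. With trends removed the flat profile follows by construction.

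Additivity depends on the scale on which it is asked. On the CPM scale, the excess is the combined level minus the IL-33 level minus the antibody level plus the isotype level, each as a mean. Of 609 rising genes averaging at least 5 CPM, 433 (71.1%) had an excess above 0, while 358 (58.8%) had a log2 interaction above 0. The excess was more than 2 SE above 0 in 65 genes and more than 2 SE below in 14. For 83 genes the excess was positive in CPM and the interaction negative on the log2 scale, and for 8 the reverse. Il1b was such a gene, with an excess of 718 CPM (SE 680.2) and a log2 interaction of -0.35, and Bcl2l1 had 39.6 CPM (SE 29.2) beside -0.08. Ldha had 553 CPM (SE 243), Tpi1 270.1 (SE 148) and Ltb 258 (SE 112), positive on both scales. Irak3, at -17.4 (SE 49.1), and Nolc1, at -11.7 (SE 2.23), were below 0 on both.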

How the data were processed

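RNA sequencing libraries were analysed from 12 samples in 4 groups of 3. Raw counts per gene, whole numbers, were used as the authors deposited them, with gene names, lengths and mm10 coordinates of the authors' table. The submitters' processing notes name the build mm10 and list featureCounts 1.5.0-p3, STAR 2.6.1d, fastp, DESeq2 and FastQC 0.11.8. For annotation release and strandedness of counting, the entry is: not given in the sources used here. Overlapping and antisense genes therefore cannot be told apart. The deposited normalized table was not used.

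Computed from these counts: in R 4.3.3 with edgeR 4.0.16, genes were filtered with filterByExpr by group and scaled by TMM. A model with 1 term per group and no replicate block was fitted to all libraries and tested by the quasi-likelihood F test. The interaction, the IL-33 main effect and the antibody main effect were each adjusted by Benjamini-Hochberg over 14547 genes and called under 0.05. SE came from the fitted weights, and intervals are 95%. CPM are TMM-scaled, and expected levels are from mean log2 CPM with a pseudocount of 0.5.

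Named genes had a mean of at least 5 CPM, except the fixed markers, which had no such floor. They were the 10 with the smallest unadjusted interaction p in each direction. The 10 with the largest IL-33 main effect in each direction were added (none for the antibody main effect, with 0 calls). Also named were the 5 rising and 5 falling IL-33 genes with the narrowest interval, up to 4 called members per list, and fixed markers. Others named, among them Ltb, Ldha, Gapdh, Egln1, Bnip3, Traf3, N4bp1, Cxcl10, Ddx21, Heatr1, Pprc1, Ube2m as a class member, Rras, Ppp1r14b, Arhgef6, Dap, Dusp6, Etv5 and Spred1, were chosen after their values were seen. So was F13a1, which averaged 2.64 CPM. Of the fixed markers Csf2 was not tested, with 4 counts in IL-33 library 2, 5 in combined library 3 and 0 in the other 10. Members and lists (29 lists, 522 symbols, 459 tested) were chosen with earlier results of these data known.

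Alternatives were RLE and upper quartile scaling, no filter, a filter at 5 CPM, DESeq2 1.42.0, limma 3.58.1 voom with quality weights, robust dispersion, a replicate block, leaving out each library, leaving out combined libraries 2 and 3, and, chosen after seeing the data, removing length and GC trends (GENCODE M21 transcripts) from each library. Scripts were tested on simulated counts. In that test the interaction was called for 25.4% of genes given a 2-fold interaction, 85.1% at 4-fold and 98.5% at 8-fold. The simulation gave all groups the same spread per gene and planted changes only in genes averaging at least 5 CPM. In the real data the combined group varied most, so these rates may be too high for it.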

Additional observations from a re-analysis of the deposited data

How the results depend on the processing

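The interaction count was 0 under RLE and upper quartile scaling, a filter at 5 CPM, voom, robust dispersion, the replicate block, removal of trends and without combined libraries 2 and 3. It was 3 with DESeq2, 86 with no expression filter and 0 to 4 with single libraries left out. With no filter there were 1147 positive and 1061 negative genes at an unadjusted p under 0.05, 228 more and 77 less than additive, and 275 calls for the antibody main effect. DESeq2 gave 133 more, 50 less and 982 close to additive genes and 133 antibody calls. Voom with quality weights gave 1184 positive and 1061 negative genes, 2112 calls for the IL-33 main effect, 1 antibody call, and 199 more, 85 less and 1064 close to additive genes. Without combined libraries 2 and 3 there were 127 positive and 171 negative genes, 24 more and 9 less than additive and 1 antibody call; fewer libraries and a lone library taken to vary like the others enter there. With trends removed there were 1098 close to additive genes and 7 antibody calls, and with the 5 CPM filter 1 antibody call. Apart from these changes of fit and input, the cause was not tested.

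Leaving out single libraries gave 771 to 2052 calls for the IL-33 main effect, 0 to 9 for the antibody main effect, 284 to 1677 positive and 175 to 1885 negative genes, 16 to 683 more, 11 to 71 less and 320 to 833 close to additive genes, and a positive CPM excess in 363 to 480 genes, against 433. Of 2595 values for the 118 named genes under all settings, 13 (all in 8 genes named for the interaction) passed the adjusted threshold. The sign turned in 205 values of 65 genes, 0 of them values of genes named for the interaction, and in 32 of the 205 the value moved by at least 1 SE. Genes named for the interaction were picked for their small p in these same libraries, which makes a kept sign likely and is not separate support. In all, 68 values of the other named genes moved by at least 1 SE.

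Of 18 correlations between same-numbered libraries of different groups, 11 were over 0.1, and they ran from -0.41 to 0.49. Differently numbered libraries were not compared, so this check cannot decide whether the numbers pair libraries. The model without a block was used for the main values. With the replicate number as a block there were 0 interaction calls, 1380 IL-33 calls and 6 antibody calls. At an unadjusted p under 0.05 there were then 693 positive and 615 negative genes, against 736 and 414 without a block.

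With 3 libraries a group and a median SE of 0.40, departures from additivity of 2-fold or less were mostly not detectable at the adjusted threshold. The 4 groups shared 1 spread estimate per gene although the combined group varied most, so p-values for the interaction may be too small.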

Other observations

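The antibody main effect had 0 calls by edgeR without a block, 133 by DESeq2 and 1 by voom. The genes nearest to a call included feedback genes of the ERK kinase pathway. Other genes were called in the same settings, among them Tarm1, Hspa1b and Dhrs9 with the replicate block and Tarm1, St8sia4 and Alcam with trends removed. Tarm1 had an antibody main effect of 1.14 with the block (edgeR adjusted p 0.0299) and 0.96 with trends removed (edgeR adjusted p 0.0360). Dusp6, a phosphatase that inactivates ERK, measured 199, 217 and 207 CPM in isotype, 396, 369 and 427 with antibody, 336, 271 and 283 with IL-33 and 453, 493 and 384 with both. Every library with antibody exceeded every library without it for this gene. Its antibody main effect was 0.76 on the log2 scale (edgeR adjusted p 0.0622, 0.0400 with the replicate block and 0.0360 with trends removed), and its interaction was -0.36 (-0.81 to 0.09).

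Etv5, an ETS transcription factor downstream of ERK, measured 10.5, 9.38 and 11.1 CPM in isotype, 34.5, 25.5 and 42.8 with antibody, 18.7, 5.67 and 11.2 with IL-33 and 36.7, 22.5 and 28.9 with both. The libraries with antibody again lay above all others, and the IL-33 libraries overlapped isotype. Its antibody main effect was 1.52 (edgeR adjusted p 0.073, 0.0268 with the replicate block and 0.0360 with trends removed) and its interaction -0.43 (-1.44 to 0.58). Spred1, an inhibitor of RAS and ERK signalling, measured 37.6, 37.5 and 33.8 CPM with antibody against 11.4, 16.8 and 11.4 in isotype, and 52.2, 37.4 and 32.5 with both against 33.6, 21.6 and 19.6 with IL-33. The combined libraries overlapped the IL-33 libraries, and the interaction was -0.76 (unadjusted p 0.0423), and -0.37 without combined libraries 2 and 3. Its antibody main effect was 1.08 (edgeR adjusted p 0.073, 0.0299 with the replicate block and 0.0360 with trends removed). These genes were chosen after their values were seen.

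Marker lists of other cells had these median interactions. T cell and ILC2 markers had -0.62 over 18 tested genes with 3 above 0, neutrophil markers 0.55 over 14 with 11 above 0, monocyte and macrophage markers 0.34 over 14 with 10 above 0, and B and plasma cell markers -0.18 over 15 with 5 above 0, beside -0.03 over all genes. Basophil and mast cell markers had 0.16 over 8, dendritic cell markers -0.14 over 9 and erythroid markers 0.34 over 7. Over 3 or 4 tested genes, megakaryocyte and platelet markers had -0.12, stroma and endothelium markers 0.26 and NK cell markers 0.91. Single libraries set several of these values. Without IL-33 library 2 the median was 0.31 for T cell and ILC2 markers, with 12 of 18 above 0, and 0.13 for B and plasma cell markers. Without IL-33 library 3 it was 0.11 for neutrophil and 0.09 for monocyte and macrophage markers, and without combined library 3 it was 0.14 for NK cell markers. Leaving out single libraries also took the basophil and mast cell (-0.26 to 0.77), dendritic cell (-0.42 to 0.44), erythroid (-0.20 to 0.96) and megakaryocyte (-0.24 to 0.12) medians to both sides of 0.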
